A study of Rattus norvegicus with 12 samples.

Results

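The epidermal growth factor (EGF) family of ligands and the ErbB receptors that bind them were followed as 10 genes, 6 ligands and 4 receptors, in cultured rat heart muscle cells exposed to a plasticizer. Under the plasticizer the transcripts of 2 ligands, Hbegf and Nrg1, stood 2.89-fold and 2.70-fold lower than in controls, with no overlap between the groups. The receptor gene Egfr stood 1.36-fold higher, and Erbb2, Erbb3 and Erbb4 stayed within 1.14-fold of the controls on average. The members were listed by gene symbol, and each is the probe set whose platform annotation gives that symbol and no other. Each of the 10 had 1 such probe set, of 14324 genes with a probe set of a single symbol in all. The list was chosen by gene family, with the log2 ratios of these 6 DEHP and 6 control arrays already known, so the contrast itself counts as used in the choice. The differences of the 10 genes between the groups are therefore given as a description, with no test.

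Each culture gave RNA for 1 Affymetrix array. The cultures were monolayers of heart cells taken at 2 days of age from Sprague-Dawley pups of a single litter, grown for 3 days and then treated for 3 days. The 6 DEHP cultures received 50 µg/mL DEHP (di(2-ethylhexyl) phthalate, a plasticizer that leaches from flexible plastic) in 0.1% DMSO, and the 6 control cultures received 0.1% DMSO alone. The labels call the cultures of a group biological replicates. With 1 litter, the errors below cover how cultures and arrays varied, and hold nothing on how litters vary.

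EGF family ligands are made as membrane-anchored precursors that metalloproteases cut free, and they signal to the same or to nearby cells. Binding lets ErbB receptors pair and switch on the RAS-ERK and PI3 kinase-AKT pathways. Egfr encodes a receptor, not always the only one, of the products of Hbegf, Areg, Ereg, Btc and Tgfa. The receptors encoded by Erbb3 and Erbb4 bind neuregulins such as the product of Nrg1. The Erbb2 product has no ligand of its own and acts as the partner of the others. In the heart, neuregulin from endothelial cells acts on the cardiomyocyte receptors ErbB4 and ErbB2, and heparin-binding EGF-like growth factor, the product of Hbegf, is shed by cardiomyocytes under hypertrophic stimuli.

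The deposited value of a probe set on an array is a linear ratio to that probe set's own median over the 12 arrays, and its log2 is used throughout. A log2 ratio of 0 is thus the gene's median, and the ratios hold no level: it cannot be read from them whether Egfr is more abundant than Erbb4, nor how strongly any marker of a cell type is expressed. Where 2 groups of 6 do not overlap, this centring also puts the lowest value of one and the highest of the other at equal distances from 0. Log2 folds are DEHP over control, with the standard error (SE) of a limma fit over all probe sets.

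Sequence upstream of the start was held for 7 of the members. It is shown for Hbegf, the ligand with the largest drop, and for Areg, a ligand that shares a receptor with it and has values near 0 in both groups. It is also shown for Egfr, which encodes that receptor. The 250 bases before the annotated start, from RefSeq on build GRCr8, are written 5′ to 3′ on the gene's strand. They lie at chr18:28390221-28390470 on the minus strand for Hbegf, at chr14:17265642-17265891 on the minus strand for Areg and at chr14:95378376-95378625 on the plus strand for Egfr. Capitals mark matches to any of 4 motifs searched on both strands, namely TGANTCA (AP-1), TGACGTCA (cyclic AMP response element), GGAATG (TEAD) and GGGCGG (SP1).
Hbegf: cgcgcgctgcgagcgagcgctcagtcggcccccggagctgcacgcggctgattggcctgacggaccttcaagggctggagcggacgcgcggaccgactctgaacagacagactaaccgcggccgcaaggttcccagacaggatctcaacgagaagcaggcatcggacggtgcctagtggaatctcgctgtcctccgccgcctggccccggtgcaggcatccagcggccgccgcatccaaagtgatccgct
Areg: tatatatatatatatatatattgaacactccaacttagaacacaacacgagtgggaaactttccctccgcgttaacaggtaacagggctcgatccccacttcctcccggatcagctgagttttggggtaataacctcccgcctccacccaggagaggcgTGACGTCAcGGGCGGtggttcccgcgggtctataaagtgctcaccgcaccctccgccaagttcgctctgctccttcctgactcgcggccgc
Egfr: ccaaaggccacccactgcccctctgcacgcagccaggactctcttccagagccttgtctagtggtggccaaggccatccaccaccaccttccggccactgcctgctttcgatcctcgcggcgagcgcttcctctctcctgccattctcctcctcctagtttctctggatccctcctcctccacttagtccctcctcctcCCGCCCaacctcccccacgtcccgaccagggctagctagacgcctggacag
The Hbegf window held none of the 4 motifs. The Areg window held a cyclic AMP response element from 91 to 84 bases before the start and an SP1 motif from 82 to 77 bases before it, and the Egfr window held an SP1 motif from 51 to 46 bases before it. Among the 7 members the SP1 motif was in 6 windows, the cyclic AMP response element in 1, the TEAD motif in 1 (Erbb2) and the AP-1 motif in 0. Of 33469 windows of the same length in the table, 30.5% held the SP1 motif, 1.6% the cyclic AMP response element, 12.1% the TEAD motif and 6.3% the AP-1 motif. A match is a run of letters and no more than that.

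Hbegf was lower in every DEHP culture than in any control. Its log2 ratio ran from 0.67 to 0.82 in the controls (median 0.77) and from −0.88 to −0.67 under DEHP (median −0.77). Both groups were tight, with an SD of 0.06 in controls and 0.09 under DEHP (n = 6 each), and the gap of 1.34 between the lowest control and the highest DEHP culture was larger than either SD. The log2 fold was −1.53 ± 0.05 (SE). By size of fall it ranked 34 among 14324 genes. Leaving out any single array moved the log2 fold only between −1.55 and −1.51.

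Nrg1, which encodes neuregulin-1, showed the same separation. The controls ran from 0.58 to 1.01 (median 0.79) and the DEHP cultures from −0.76 to −0.58 (median −0.65). No DEHP culture reached the lowest control. Here the spread was larger among the controls (SD 0.15) than under DEHP (SD 0.07), with control replicate 1 the highest. The log2 fold was −1.43 ± 0.07 (SE, n = 6 each), rank 47 among the falls, and single arrays left out moved it between −1.47 and −1.39. Where the probes of this 1 probe set lie in the gene was not checked, and the many transcript forms of Nrg1 were not told apart.

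Tgfa, which encodes transforming growth factor alpha, was lower in most DEHP cultures but not in all. Controls ran from −0.06 to 0.15 (median 0.08), and DEHP cultures from −0.51 to 0.07 (median −0.28). Of the 6 DEHP cultures, 4 lay below every control, while DEHP replicates 5 and 6 lay among or beside them. The log2 fold was −0.32 ± 0.09 (SE, n = 6 each), and −0.38 ± 0.08 without DEHP replicate 6, the highest of its group.

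Betacellulin (Btc) and amphiregulin (Areg) overlapped between the groups. For Btc the controls ran from −0.02 to 0.60 (median 0.15) and the DEHP cultures from −0.16 to 0.06 (median −0.11). Control replicate 5 held the value of 0.60, and the next control stood at 0.27. The log2 fold of Btc was −0.27 ± 0.09 (SE, n = 6 each) over all arrays and −0.19 ± 0.06 without that control. For Areg the controls ran from −0.16 to 0.21 (median 0.08) and the DEHP cultures from −0.17 to 0.03 (median −0.04), a log2 fold of −0.12 ± 0.06. Only 1 DEHP culture lay below all controls in Areg, against 4 in Btc.

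A single DEHP culture set the mean of epiregulin (Ereg). The controls ran from −0.25 to 0.03 (median −0.17). The DEHP cultures ran from −0.02 to 2.79 (median 0.10), where DEHP replicate 6 held the value of 2.79 and the next highest stood at 0.24. The log2 fold of 0.67 ± 0.41 (SE, n = 6 each) became 0.22 ± 0.06 without DEHP replicate 6. With or without that culture the groups overlapped, since DEHP replicates 3 and 5 lay below the highest control, and 4 of the 6 DEHP cultures lay above every control.

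Among the receptors, Egfr was higher in all 6 DEHP cultures than in any control. Controls ran from −0.51 to −0.05 (median −0.21) and DEHP cultures from 0.05 to 0.83 (median 0.11). The ends of both ranges came from single cultures, DEHP replicate 6 at 0.83 with the next at 0.19, and control replicate 5 at −0.51 with the next at −0.26. The log2 fold was 0.44 ± 0.13 (SE, n = 6 each), 0.32 ± 0.07 without DEHP replicate 6 and 0.26 ± 0.05 without both arrays. The groups thus stood apart by 0.09 at the closest, while the size of the difference rested in part on these 2 cultures.

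The neuregulin receptor genes differed by less. Erbb4, the receptor through which neuregulin acts on cardiomyocytes, ran from −0.25 to 0.03 in controls (median −0.04) and from −0.05 to 0.36 under DEHP (median 0.06), a log2 fold of 0.18 ± 0.08. Of the DEHP cultures, 4 lay above every control. Erbb2 ran from −0.19 to 0.11 in controls (median −0.06) and from −0.03 to 0.08 under DEHP (median 0.02), with a log2 fold of 0.08 ± 0.05. All 6 DEHP cultures lay within the range of the controls. Erbb3, a receptor with little kinase activity of its own, ran from −0.08 to 0.34 in controls (median 0.02) and from −0.17 to 0.05 under DEHP (median −0.05), with a log2 fold of −0.10 ± 0.07. The value of 0.34 was that of control replicate 5, without which the log2 fold was −0.05 ± 0.05.

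**Figure D1:**
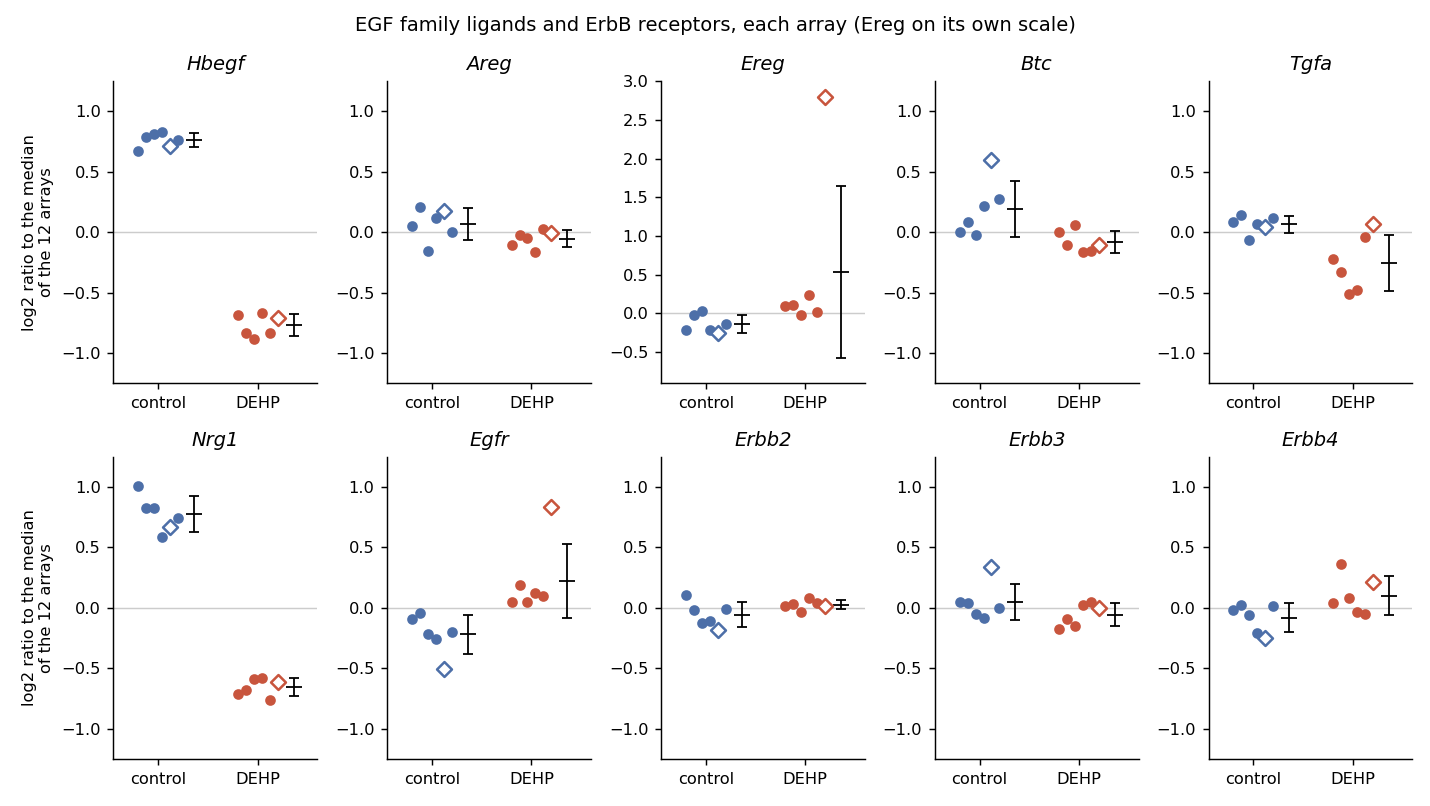
Log2 ratio of each of the 10 genes on each of the 12 arrays, control in blue and DEHP in red, with the mean and SD of each group as black bars (n = 6). Open diamonds are control replicate 5 and DEHP replicate 6, and Ereg has a scale of its own. Hbegf and Nrg1 separate by more than the spread of either group, Egfr separates narrowly, and Ereg stands at 2.79 in DEHP replicate 6 alone.

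By the limma threshold that the other genes are held to (adjusted p under 0.05 over all probe sets), 4 of the 10 passed, where 24.6% of all genes passed. Egfr was the 1 higher, where 14.4% of all genes passed as higher, and Hbegf, Nrg1 and Tgfa were the 3 lower, where 10.2% passed as lower. The groups did not overlap in 3 of the 10, where that held for 16.9% of all genes. Because the members were proposed with this contrast known, nothing is read from these counts. Without DEHP replicate 6 the count was 5, with Ereg added as higher, and 23.7% of all genes passed. Without control replicate 5 as well it was again 5, where 28.4% of all genes passed.

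**Figure D2:**
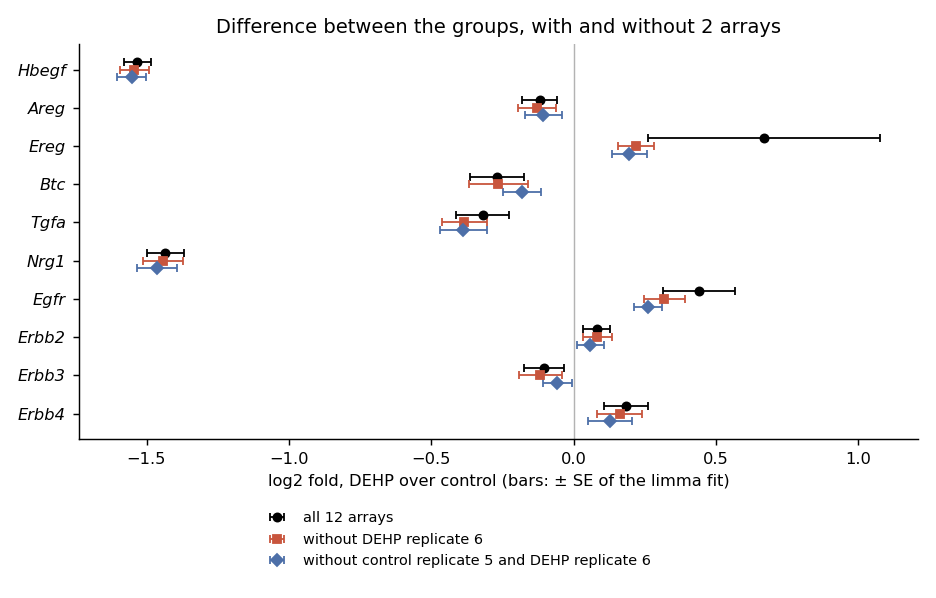
Log2 fold of DEHP over control for each of the 10 genes, with the SE of the limma fit, over all 12 arrays (black), without DEHP replicate 6 (red) and without control replicate 5 and DEHP replicate 6 (blue). Hbegf and Nrg1 hardly move between the 3 fits, while Ereg goes from 0.67 to 0.20 and Egfr from 0.44 to 0.26.

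These 2 cultures stood apart over the whole array too. The SD of the log2 ratios over all probe sets was 0.37 in control replicate 5 and 0.27 in DEHP replicate 6, where the other 10 lay between 0.15 and 0.19. Among the members control replicate 5 was the lowest control in 4 (Ereg, Egfr, Erbb2 and Erbb4) and the highest in 2 (Btc and Erbb3), and DEHP replicate 6 was the highest DEHP culture in 3 (Ereg, Tgfa and Egfr) and the lowest in 0. In Hbegf and Nrg1 neither culture was the extreme of its group.

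Btc, Areg and Ereg are neighbours on 1 chromosome, in this order, with Epgn, another ligand gene, next to Ereg. They did not move as a block. The measured coding genes on either side were Parm1 next to Btc, which rose (log2 fold 1.55 ± 0.06), and Mthfd2l beyond Epgn (−0.05 ± 0.07). Beyond Mthfd2l lies the chemokine gene Cxcl2, which shared with Ereg a high value in DEHP replicate 6 (2.84). Its log2 fold was 0.01 ± 0.48 with that value included, so the other DEHP cultures lay below the controls on average. In Ereg the other DEHP cultures lay above the controls on average (0.22 ± 0.06 without DEHP replicate 6). These neighbours were looked up after the values of the members were seen.

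The genes nearest to Hbegf in pattern were Csrp3, Lmcd1, Pdlim3 and P4ha3. Nearness was the root mean square difference of the log2 ratios over the 12 arrays, among named genes other than the members, and came to 0.11, 0.12, 0.13 and 0.13. Their log2 folds were −1.67 ± 0.05 for Csrp3, −1.67 ± 0.04 for Lmcd1, −1.42 ± 0.06 for Pdlim3 and −1.50 ± 0.08 for P4ha3. Csrp3 and Pdlim3 encode LIM domain proteins of the Z-disc, Lmcd1 another LIM domain protein, and P4ha3 a subunit of the collagen prolyl hydroxylase. Nrg1 lay 0.16 from Hbegf, with 9 named genes nearer, and Pdlim3 and P4ha3 were also among the 4 genes nearest to Nrg1, a look-up added after the values were seen.

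Ereg, the member with the largest mean rise, had as nearest genes Ptges, Mmp3, Nos2 and Car4. In DEHP replicate 6 they stood at 2.98, 2.42, 3.02 and 2.80, and in the other DEHP cultures the highest values were 0.39, 0.43, 0.03 and 0.37. Over all arrays their log2 folds were 0.95, 0.79, 0.51 and 0.94, and none of the 4 passed. Without DEHP replicate 6 Ptges (0.50), Mmp3 (0.43) and Car4 (0.51) passed as higher, while Nos2 stood at 0.0010 and did not. The 4 were picked for their nearness to Ereg over these same arrays, so nothing is read from these calls. Ptges encodes an inducible prostaglandin E synthase, Mmp3 the matrix protease stromelysin, Nos2 the inducible nitric oxide synthase and Car4 a membrane-bound carbonic anhydrase. Their root mean square differences from Ereg were 0.19, 0.20, 0.20 and 0.22. The genes nearest to Egfr, looked up after the values were seen, were Nfkbie, Cpeb4, Irak3 and Riok3. In DEHP replicate 6 these stood at 0.93, 0.64, 1.03 and 0.85, and in control replicate 5 at −0.47, −0.37, −0.41 and −0.46.

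Around the members, 83 further genes of the pathway were listed by known function, and 68 had a probe set of a single symbol. Of these, 13 rose, 13 fell and 42 did not pass the limma test, and their median log2 fold was 0.03, against −0.02 over all genes. The share that passed was 38.2%, against 24.6% of all genes, and the groups did not overlap in 20 of 68, where that held for 16.9% of all genes. The list was chosen with earlier results of these data known, so these shares are given as a description. Of the 5 other ligands listed, 2 were measured, Egf (log2 fold 0.01 ± 0.05, adjusted p = 0.93 by limma) and Nrg2 (−0.21 ± 0.09, adjusted p = 0.12 by limma), and neither passed. At an unadjusted p under 0.05 the limma test had 1 of them, Nrg2, and the share of all genes at that cut was not counted. Epgn, Nrg3 and Nrg4 had no probe set of that single symbol.

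Genes of ligand release went both ways, with 2 rises, 1 fall and 8 of 11 not passing, and a median of 0.10. The share that passed was 27.3%, near the 24.6% of all genes. Timp3, the tissue inhibitor that blocks ADAM17, the main sheddase of EGFR ligands, fell 2.67-fold (−1.42 ± 0.11, adjusted p = 1.39e-06 by limma). Its controls ran from 0.49 to 0.86 and its DEHP cultures from −1.15 to −0.49. Nrdc, nardilysin, which binds Hbegf protein and enhances its shedding, rose (0.54 ± 0.08, adjusted p = 4.03e-04 by limma), as did the metalloprotease gene Adam9 (0.43 ± 0.09, adjusted p = 0.0030 by limma). Adam17 itself stood at 0.35 ± 0.12 and did not pass (adjusted p = 0.060 by limma). Its highest value, 0.65, came from DEHP replicate 6, and without that culture the log2 fold was 0.25.

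Of 24 genes listed as adaptors, kinases and other proteins downstream of the receptors, 7 rose, 1 fell and 16 did not pass. Their median was 0.09, where 14.4% of all genes rose and 10.2% fell. Stat5a, a transcription factor that receptor kinases phosphorylate, rose from between −0.37 and −0.20 in controls to between 0.20 and 0.60 under DEHP (0.64 ± 0.06, adjusted p = 9.57e-06 by limma). Plcg1, a phospholipase that docks on activated receptors, rose by 0.48 ± 0.07, the kinase gene Akt2 by 0.29 ± 0.05 and Pik3r2, a regulatory subunit of PI3 kinase, by 0.31 ± 0.07. The single fall was in Map2k1, a kinase that activates ERK (−0.17 ± 0.04), which was named after its value was seen because it was the 1 fall. The receptor adaptors Grb2 (0.03 ± 0.05) and Shc1 (0.04 ± 0.05), also named afterwards, did not pass.

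Genes that restrain or sort the receptors had 4 rises, 3 falls and 6 of 13 not passing, with a median of 0.12, beside the same 14.4% and 10.2% of all genes. Sh3kbp1, an adaptor in the endocytosis of EGFR, rose 2.12-fold (1.08 ± 0.08, adjusted p = 1.72e-06 by limma), with controls from −0.81 to −0.36 and DEHP cultures from 0.36 to 0.79. Usp8, a deubiquitinase of the endosome, rose by 0.39 ± 0.09. Errfi1, a feedback inhibitor that binds the kinase domain of EGFR and whose transcription follows receptor signalling, fell (−0.42 ± 0.06, adjusted p = 3.93e-04 by limma), from between 0.07 and 0.34 to between −0.39 and −0.07. Lrig3, of a family of transmembrane proteins that act on receptor kinases, fell by 0.28 ± 0.06 on the log2 scale. Lrig2 of the same family, named after its value was seen, rose by 0.46 ± 0.10 (adjusted p = 0.0076 by limma), with no overlap between the groups.

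Transcripts that are known to follow ERK activity moved in 1 direction where they passed: of 18, 8 fell, none rose (0) and 10 did not pass, with a median of −0.19, and 10.2% of all genes fell. Spry1, a feedback inhibitor of receptor kinase signalling, fell 2.45-fold (−1.29 ± 0.09, adjusted p = 8.80e-07 by limma), with controls from 0.50 to 0.75 and DEHP cultures from −1.11 to −0.50. Phlda1 fell by 0.81 ± 0.10, the ERK phosphatase gene Dusp4 by 0.59 ± 0.08 and cyclin D1, Ccnd1, by 0.55 ± 0.04 on the log2 scale. Other transcripts of this kind did not pass, among them Dusp6 (0.05 ± 0.11) and Spry2 (−0.14 ± 0.07), which were named after their values were seen. Without DEHP replicate 6 the falls numbered 11, and without control replicate 5 as well they numbered 12, with 0 rises in both cases. In these fits 23.7% and 28.4% of all genes passed in either direction. Of 27342 probe sets, 2020 fell without DEHP replicate 6 and 2658 without both arrays. The share of genes that fell was not counted. At an unadjusted p under 0.05 limma gave 10 falls and 0 rises over all arrays. The share of all genes at that cut was not counted, so nothing is read from this number. ERK is driven by many receptors, and no activity of ERK or of a receptor was measured here.

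**Figure D3:**
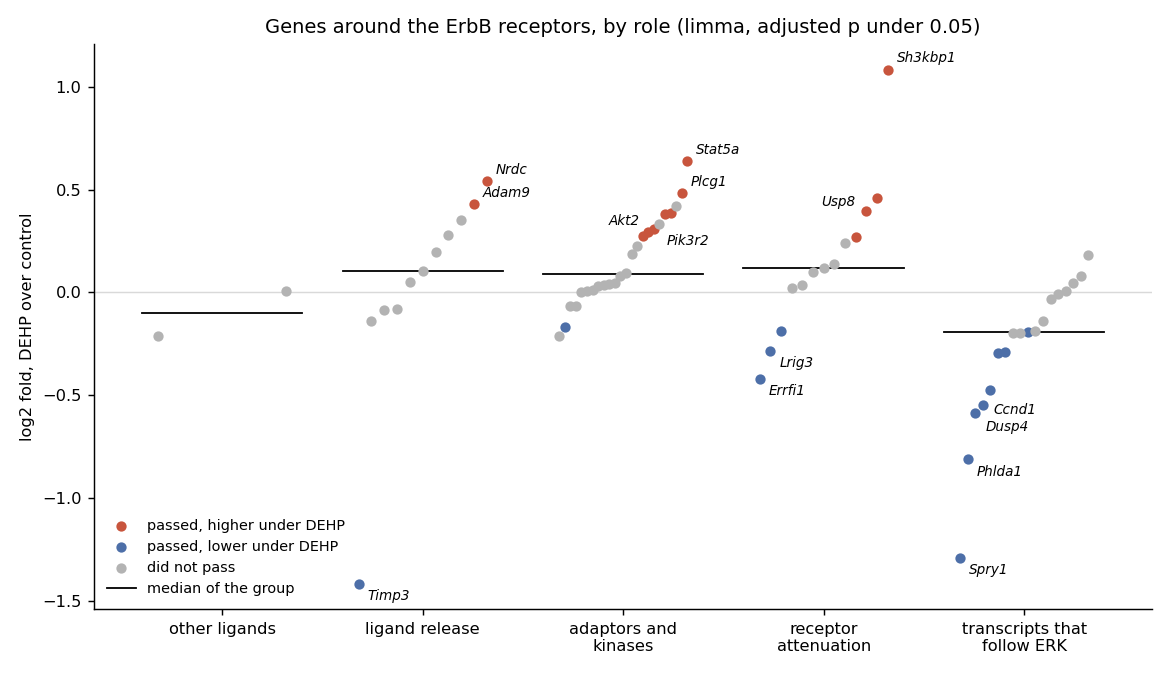
Log2 fold of DEHP over control for the 68 measured pathway genes, ordered by size within each role. Red and blue points passed the limma test as higher or lower, grey points did not pass, and black bars are the medians, from −0.19 for transcripts that follow ERK to 0.12 for receptor attenuation.

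In RNA from a whole culture, fewer cells of a type and less RNA per cell cannot be told apart. Markers of some of the cell types that such a culture can hold differed between the groups. By the same limma threshold 14.4% of all genes rose and 10.2% fell. Of 7 smooth muscle markers 7 fell, with a mean log2 ratio from 0.70 to 0.87 in controls and from −1.34 to −0.69 under DEHP. Of 10 fibroblast markers 7 fell and 3 rose, with means from 0.07 to 0.21 and from −0.50 to −0.11. Of 7 endothelial markers 5 rose and 2 did not pass. Their means ran from −0.34 to 0.01 in controls and from −0.19 to 0.47 under DEHP (from 0.17 without DEHP replicate 6). Cardiomyocyte markers had 4 rises and 3 falls among 12, with means from −0.19 to 0.08 and from −0.27 to 0.25 (from 0.04 without DEHP replicate 6).

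The means of the leukocyte list (2 rises and 1 fall among 10) ran from −0.20 to 0.13 in controls and from −0.05 to 0.12 under DEHP. Those of the Schwann cell list (1 fall among 5) ran from −0.11 to 0.22 and from −0.09 to 0.05. In the epicardial list, with 3 rises and 1 fall among 6, they ran from −0.05 to 0.08 and from −0.04 to 0.24 (to 0.06 without DEHP replicate 6). Of all genes 24.6% passed in either direction, and the leukocyte and Schwann cell counts lay near that share. The Schwann list was highest in control replicate 5, the culture with the highest Erbb3. The part of these cell types in the differences of Hbegf, Nrg1, Egfr and the other members was not tested, and since the ratios hold no level, the labelled cell type could not be checked against the level of its markers.

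**Figure D4:**
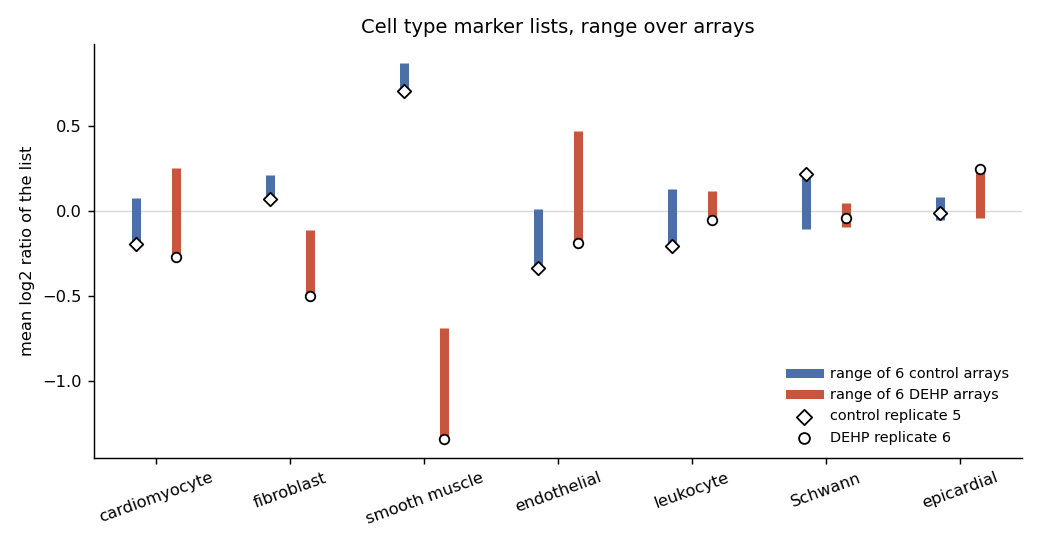
Mean log2 ratio of each cell type marker list, as the range over the 6 control arrays (blue bars) and the 6 DEHP arrays (red bars), with control replicate 5 as a diamond and DEHP replicate 6 as a circle. The smooth muscle and fibroblast lists separate between the groups, with DEHP replicate 6 lowest, and the other lists overlap.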

How the data were processed

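Gene expression was measured on 12 arrays, 6 control and 6 DEHP. Per the submitters' processing notes the authors used RMA, and no version is given. The deposited values are linear ratios: the median log2 ratio of every probe set over the 12 arrays lay within 5.0e-07 of 0. Their number sets the precision, since brightness is not held. Of 27342 probe sets, 15097 had 1 gene symbol, 323 several and 11922 none. Symbols were updated through a RefSeq table of GRCr8, which held 15067 of the identifiers and changed 0 symbols.

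Log2 ratios were fitted with limma 3.58.1 (R 4.3.3, lmFit and eBayes, all 12 arrays, no block, two-sided), with Benjamini-Hochberg adjustment over 27342 probe sets and a threshold of 0.05. For the 499 genes with more than 1 probe set the lowest-numbered was used. The fit was tested on simulated data with independent normal errors of equal spread on all 12 arrays. That setting holds neither the wider spread of control replicate 5 and DEHP replicate 6 nor a correlation between arrays, so it does not cover them. The members, lists and tests were chosen with earlier results of these data known. Genes were named by a rule: all 10 members, the 4 of each role with the smallest p, and the 4 nearest in pattern to the members with the largest rise and the largest fall. Alternatives were 3 other scalings (median centring, quantile, cyclic loess), array weights, robust eBayes, the replicate number as a block, arrays left out, an adjusted p under 0.01, a minimum fold of 1.2 (treat) and averaging a gene's probe sets. Plots used matplotlib 3.10.9.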

Additional observations from a re-analysis of the deposited data

Results flagged for a closer look

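In 84 groups of 6 arrays, from 42 named genes, the distance of the highest or lowest culture to its nearest neighbour was divided by the range of the group. A share above Dixon's 95% critical value marked a culture far from the others, which chance gives in about 1 of 20 groups, and 23 groups were marked. Genes chosen for their nearness in pattern to a member gave 8 of these marks, in 28 groups, and are not set against chance. The members and pathway genes had 15 marked of 56, 7 through DEHP replicate 6 and 6 through control replicate 5. Among the members the share was 0.908 for Ereg and 0.822 for Egfr, both highest in DEHP replicate 6, and 0.697 for Erbb3, highest in control replicate 5.

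Of the pathway genes, DEHP replicate 6 was highest in Stat5a (0.641) and Adam17 (0.731) and lowest in Timp3 (0.708), Errfi1 (0.721) and Spry1 (0.699). Control replicate 5 was lowest in Plcg1 (0.803), Timp3 (0.711), Nrdc (0.74), Sh3kbp1 (0.644) and Usp8 (0.694). Control replicate 1 was lowest in Errfi1 (0.738), and control replicate 2 highest in Dusp4 (0.81). Of the genes nearest in pattern to Ereg and Egfr, DEHP replicate 6 was highest in Ptges (0.908), Mmp3 (0.853), Nos2 (0.941), Car4 (0.873), Nfkbie (0.899), Cpeb4 (0.713), Irak3 (0.876) and Riok3 (0.787), which is how these genes were chosen.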

How the results depend on the processing

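The log2 fold of each member kept its sign under the 17 alternatives that could change it. Hbegf ran from −1.56 to −1.51, Nrg1 from −1.47 to −1.34, Egfr from 0.26 to 0.48 and Ereg from 0.20 to 0.78. Tgfa moved by more than its SD within groups under cyclic loess, to −0.51. Of all probe sets 5016 passed, and 4211 to 5556 with 1 array left out, 7614 with array weights, 3238 at an adjusted p under 0.01 and 1182 against a minimum fold of 1.2. Of the 68 pathway genes 26 passed, 23 to 29 with 1 array left out and 7 against the minimum fold. With the replicate number as a block 33 pathway genes and 6541 probe sets passed. Same-numbered arrays correlated by 0.07 to 0.77 in their deviations from the group means, over 0.1 in 5 of 6 pairs, and 5 of 12 arrays correlated best with their own number. The labels name no source that a number shares and 1 pair lay under 0.1, so the block was kept as an alternative, and a pairing was not settled. Adam17 passed with quantile normalization, array weights or without control replicate 3, and Nrg2 with the block. Ptges, Mmp3, Car4 and Irak3 passed with quantile normalization, without DEHP replicate 6, alone or together with control replicate 5, and Mmp3 and Irak3 with array weights. Nfkbie, which passed over all arrays (0.47), had a log2 fold of 0.45 and an adjusted limma p of 0.059 without control replicate 6. Ptges, Mmp3, Car4, Irak3 and Nfkbie were picked for their nearness in pattern to a member, so nothing is read from their calls. The 10 members have 1 probe set each, so no other probe set could be tried, and a filter on dim probe sets cannot be set on ratios.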
